A study of Mus musculus with 28 samples.

Results

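The response to DFMO, an irreversible inhibitor of ornithine decarboxylase, was described in induced regulatory T cells (iTreg) that lack JMJD3 in T cells. Its members were 6 of the 28 RNA-seq libraries of the series, 3 of iTreg cultures given 100 µM DFMO (iTreg DFMO KO) and 3 of cultures without it (iTreg ctrl KO), 1 of each kind from each of 3 animals. The labels' animal numbers pair the libraries. All animals were C57BL/6 mice, and age and sex were not given. KO animals were JMJD3fl/flCD4cre, so Cre was driven by the Cd4 promoter and the floxed gene is deleted in the CD4 and CD8 lineages from the thymus on. The 4 WT animals are called control mice in the labels, which do not give their flox or Cre status.

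Splenic CD4 T cells of naive surface phenotype were stimulated on plates coated with antibodies to CD3 and CD28 (1 µg/ml each). For iTreg they received TGF-beta 1 at 2 ng/ml, and for the comparison culture Th17n, non-pathogenic Th17 cells, IL-6 at 25 ng/ml in addition. Cells of all groups were collected after 68 h by sorting for live cells, and no vehicle was named for the ctrl cultures. Besides the 6 libraries, the tests used 4 iTreg DFMO WT and 4 iTreg ctrl WT libraries, and 3 Th17n DFMO KO and 3 Th17n ctrl KO libraries of the same KO animals. The title of the series puts the question whether JMJD3 carries part of the polyamine effect on Th17 cells, for which the iTreg cultures are the second lineage.

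Polyamines are made from ornithine, which ornithine decarboxylase turns into putrescine. Spermidine synthase and spermine synthase then add aminopropyl groups, which AMD1 supplies by decarboxylating S-adenosylmethionine. The pool is held down by antizymes, which bind ornithine decarboxylase and send it for degradation and which need polyamines for their own translation, and by acetylation and oxidation. Spermidine is also the donor of hypusine, a modified lysine on the translation factor eIF5A. JMJD3, encoded by Kdm6b, removes methyl groups from lysine 27 of histone H3. Foxp3 is the lineage factor of regulatory T cells, and TGF-beta induces it in naive CD4 cells.

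Total estimated counts were 3406287 to 4528484 per library in iTreg DFMO KO and 2312481 to 2911716 in iTreg ctrl KO, so every DFMO library was deeper than every ctrl library. Totals were 3233025 to 4066614 in iTreg DFMO WT, 2792847 to 4753768 in iTreg ctrl WT, 3957830 to 4732039 in Th17n DFMO KO and 2226914 to 4143568 in Th17n ctrl KO. In a principal component analysis of the 6 libraries, component 1 (57.5% of the variance) separated DFMO (35.3 to 37.7) from ctrl libraries (-39.1 to -32.5). Component 2 (14.7%) put the 3 animals in the same order in both treatments. The summed CPM (counts scaled to a library size of 1e6) of 9 T cell markers was 3224 to 3549 in DFMO and 3155 to 3460 in ctrl libraries. Taken singly, 3 of them were higher under DFMO (Cd3e, Cd5 and Cd247) and 3 lower (Cd3d, Cd28 and Zap70) at an edgeR adjusted p under 0.05. The 4 mast cell markers and the granulocyte genes S100a8 and S100a9 were at 0 in all 6 libraries. Markers of gamma delta T cells had no row in the deposited tables.

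Kdm6b (GRCm38 chromosome 11, 69398508 to 69413675, minus strand), the floxed gene, had 26.1, 19.9 and 27.7 CPM in the iTreg DFMO KO libraries, against 31.1, 33.3 and 29.1 CPM in iTreg ctrl KO. Every DFMO library lay below every ctrl library. The log2 fold change was -0.35 ± 0.23 (SE) and did not pass the test (edgeR adjusted p = 0.232). In WT cells Kdm6b averaged 49.1 ± 7.49 CPM under DFMO and 43.3 ± 4.64 CPM in ctrl libraries (SD, n = 4 each). Values are per gene and do not separate exons, so they do not show how completely the floxed part was removed.

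DFMO changed a large part of the measured transcriptome of these cells. Of 10985 genes tested, edgeR called 4181 at an adjusted p under 0.05 (38.1%), 2083 higher (19.0%) and 2098 lower (19.1%) in iTreg DFMO KO than in iTreg ctrl KO. Of these, 1264 differed at least 2-fold, 457 higher and 807 lower. Among the called genes, 3957 had groups that did not overlap and 4126 moved the same way in all 3 animals. The call itself favours genes with both traits, so these counts are no separate evidence for it. The median log2 fold change over all tested genes was -0.03. With all libraries thinned to the smallest library total, 1867 genes were called higher and 1916 lower. On TPM, the length-scaled unit also deposited, limma called 1337 higher and 2116 lower, a share of 38.7% higher against 49.8% on counts. With TPM scaled by TMM, edgeR's normalization between libraries, it called 1729 higher and 1764 lower (49.5% higher). In bulk RNA, fewer cells of a type and less RNA per cell cannot be told apart, and this holds for every value below.

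The genes of polyamine synthesis were higher or not called, and those that break polyamines down or restrain their synthesis were lower. Azin1, which counters the antizymes, was higher. Of 5 tested synthesis genes 2 were called higher and 0 lower, beside 19.0% and 19.1% of all tested genes, with a median log2 fold change of 0.43. Srm, spermidine synthase (chromosome 4, 148591503 to 148594993, plus strand), had 494, 495 and 579 CPM in DFMO libraries, against 84.3, 114 and 82.0 CPM in ctrl libraries. All DFMO libraries stood far above all ctrl libraries, a 5.61-fold difference (log2 2.49 ± 0.19, edgeR adjusted p = 3.43e-11). In WT iTreg the fold was 3.06, and the difference between the genotypes' DFMO effects was not called. Amd1, the S-adenosylmethionine decarboxylase, had 354, 376 and 272 CPM under DFMO and 110, 132 and 92.7 CPM without it. The groups did not overlap, and the gene rose 3.0-fold (log2 1.58 ± 0.14, edgeR adjusted p = 8.22e-10).

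Odc1, the target enzyme of DFMO (chromosome 12, 17544794 to 17551505, plus strand), had 114, 114 and 104 CPM under DFMO, against 72.0, 99.5 and 90.3 CPM in ctrl libraries. The groups did not overlap, but the log2 difference of 0.35 ± 0.17 was not called (edgeR adjusted p = 0.0991). It was called at 0.38 without a filter on low counts, at 0.33 with only the 6 libraries fitted and at 0.33 with the animal as a block in that fit. Sms, spermine synthase, had 67.4, 88.5 and 83.0 CPM under DFMO and 68.8, 69.5 and 69.9 CPM in ctrl libraries, where the groups overlapped (log2 0.20 ± 0.13, edgeR adjusted p = 0.242). Amd2, a close copy of Amd1 whose reads may be shared with it, had at most 10.4 CPM and was not called. Arg1, Arg2 and Agmat, which act upstream on arginine, were too low to be tested.

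All 3 tested genes of polyamine catabolism fell, with a median log2 fold change of -1.02. Sat1, which acetylates spermidine and spermine, had 122, 132 and 138 CPM in DFMO libraries, against 299, 307 and 266 CPM in ctrl libraries. Every DFMO library lay below every ctrl library by a wide margin (log2 -1.15 ± 0.10, edgeR adjusted p = 2.93e-10). Smox, spermine oxidase, had 22.6, 24.8 and 22.1 CPM under DFMO and 49.96, 55.9 and 36.5 CPM in ctrl libraries (log2 -1.02 ± 0.22, edgeR adjusted p = 0.000556). Paox, which oxidises acetylated polyamines, had 16.0, 20.5 and 20.9 CPM under DFMO, against 39.5, 32.9 and 35.5 CPM in ctrl libraries (log2 -0.91 ± 0.21, edgeR adjusted p = 0.000909). Neither gene's groups overlapped. In KO Th17n cells the log2 fold change of Paox was 0.16, and its difference from iTreg was called (log2 -1.06, edgeR adjusted p = 0.0303).

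Of the antizyme genes, Oaz2 fell the most. It had 19.9, 25.5 and 23.4 CPM in DFMO libraries, against 101, 79.4 and 95.0 CPM in ctrl libraries, which is 3.98-fold lower (log2 -1.99 ± 0.19, edgeR adjusted p = 2e-09). Oaz1, the main antizyme, had 594, 535 and 676 CPM under DFMO and 971, 1032 and 1074 CPM in ctrl libraries (log2 -0.77 ± 0.11, edgeR adjusted p = 1.32e-06). For both genes the DFMO libraries all lay below the ctrl libraries. Azin1, the antizyme inhibitor that frees ornithine decarboxylase, had 71.0, 98.4 and 64.5 CPM under DFMO, against 47.1, 59.2 and 38.5 CPM in ctrl libraries. It rose (log2 0.71 ± 0.20, edgeR adjusted p = 0.00674), but the call was lost without iTreg ctrl KO replicate 3 (log2 0.56) or without iTreg DFMO KO replicate 2 (log2 0.49).

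**Figure D1:**
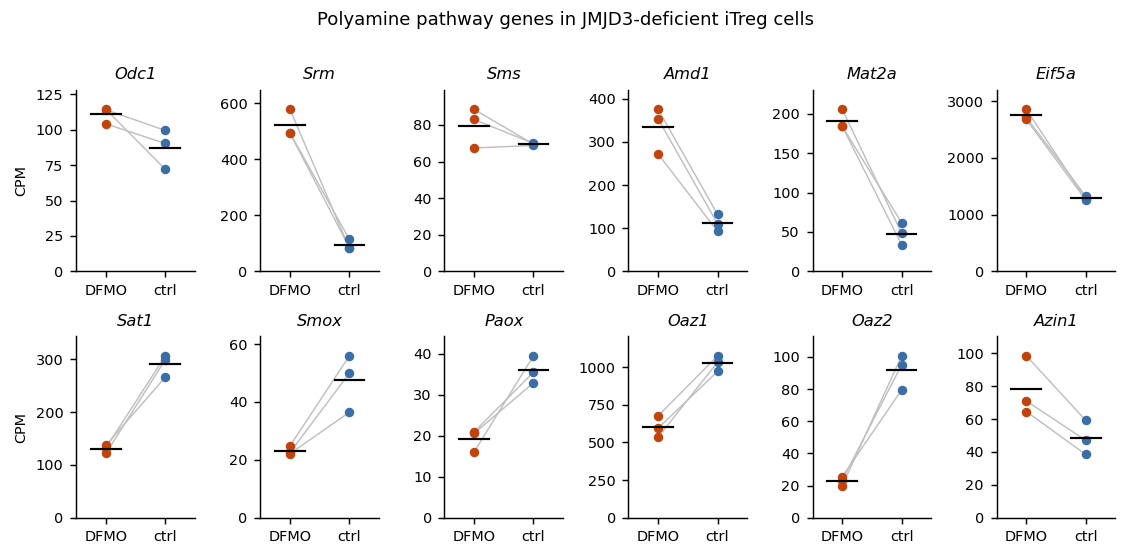
CPM of 12 genes of polyamine synthesis, use, catabolism and antizyme control in the 3 iTreg DFMO KO libraries (left, red) and the 3 iTreg ctrl KO libraries (right, blue). Grey lines join the libraries of 1 animal and black bars are group means; the DFMO libraries lie above the ctrl libraries for Srm, Amd1, Mat2a and Eif5a and below them for Sat1, Smox, Paox, Oaz1 and Oaz2.

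Some of the genes that use polyamines or supply their aminopropyl groups were also higher. Eif5a, the protein that carries hypusine (chromosome 11, 69916714 to 69921958, minus strand), had 2853, 2712 and 2676 CPM under DFMO, against 1271, 1326 and 1262 CPM in ctrl libraries. The groups were far apart (log2 1.09 ± 0.08, edgeR adjusted p = 3.4e-11). The rise was larger than in KO Th17n cells, where the log2 fold change was 0.37 (log2 difference 0.73, edgeR adjusted p = 0.000152). Dohh, the hydroxylase that completes hypusine, had 142, 123 and 159 CPM under DFMO and 66.6, 74.0 and 90.3 CPM in ctrl libraries, which do not overlap (log2 0.87 ± 0.12, edgeR adjusted p = 1.89e-06). Dhps, which starts the modification, was not called (log2 0.25, edgeR adjusted p = 0.263), nor was the paralogue Eif5a2 (log2 0.11, edgeR adjusted p = 0.841).

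Of 11 genes of the methionine cycle and salvage, 4 were called higher and 4 lower (median log2 0.18), beside 19.0% and 19.1% of all tested genes. Mat2a, the S-adenosylmethionine synthetase, had 206, 184 and 184 CPM under DFMO, against 48.5, 61.7 and 33.8 CPM in ctrl libraries. No library of one group came near the other (log2 2.00 ± 0.18, edgeR adjusted p = 6.11e-10). Mtap, which recycles the methylthioadenosine left over by spermidine and spermine synthesis, had 110, 91.0 and 105 CPM under DFMO and 56.5, 49.8 and 56.2 CPM in ctrl libraries (log2 0.91 ± 0.12, edgeR adjusted p = 1.15e-06). The other called salvage genes had smaller log2 fold changes, Enoph1 0.52 and Adi1 0.30 higher, and Mri1 -0.60, Ahcyl1 -0.66, Got1 -0.32 and Mat2b -0.32 lower. These counts depended on single libraries: 2 were called lower without iTreg ctrl KO replicate 1, and 2 higher without iTreg DFMO KO replicate 3. Of 5 tested transporters of polyamines and cationic amino acids, 0 were called. Slc7a1, an arginine transporter, had a log2 fold change of 0.30 (edgeR adjusted p = 0.0678). With the animal as a block it was called (log2 0.30, edgeR adjusted p = 0.0182), as it was with only the 6 libraries fitted (0.29). It was lower than the log2 fold change in KO Th17n cells by a log2 difference of -0.86 (edgeR adjusted p = 0.00448).

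Foxp3 (chromosome X, 7573644 to 7595245, plus strand) had 382, 355 and 318 CPM in iTreg DFMO KO libraries, against 259, 343 and 314 CPM in iTreg ctrl KO. The groups overlapped and no change was called (log2 0.20 ± 0.18, edgeR adjusted p = 0.416). In Th17n cells of the same animals Foxp3 had 34.4, 37.1 and 33.3 CPM under DFMO and 8.25, 8.36 and 3.78 CPM in ctrl libraries (log2 2.45, edgeR adjusted p = 1.5e-07). The difference between the DFMO effects of the cultures was -2.25 ± 0.37 on the log2 scale (edgeR adjusted p = 0.000228), and it was called under all 27 alternatives run for that comparison.

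Other genes of the Treg programme fell while Foxp3 was not called. Of 25 tested members 11 were called lower and 4 higher, with a median log2 fold change of -0.33 beside -0.03 over all genes. The background is 19.1% lower and 19.0% higher. Ctla4, an inhibitory receptor of regulatory T cells, had 42.2, 44.7 and 45.5 CPM under DFMO, against 150, 186 and 151 CPM in ctrl libraries. It was 3.67-fold lower with no overlap (log2 -1.88 ± 0.16, edgeR adjusted p = 4.3e-10). Its fall was larger than in KO Th17n cells, where the log2 fold change was -0.78 (log2 difference -1.10, edgeR adjusted p = 0.00167).

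Lag3, a further inhibitory receptor, had 19.9, 20.3 and 18.8 CPM under DFMO, against 111, 65.0 and 114 CPM in ctrl libraries (log2 -2.30 ± 0.20, edgeR adjusted p = 5.74e-10). Tnfrsf9 (4-1BB), a costimulatory receptor, had 140, 134 and 179 CPM under DFMO and 470, 473 and 502 CPM in ctrl libraries (log2 -1.67 ± 0.16, edgeR adjusted p = 2.26e-09). Tnfrsf18 (GITR) had 447, 385 and 418 CPM under DFMO and 907, 861 and 947 CPM in ctrl libraries (log2 -1.12 ± 0.10, edgeR adjusted p = 1.56e-09). For all 3 receptors every DFMO library lay below every ctrl library. Tigit also fell (log2 -1.92). With both libraries of KO animal 3 left out, 7 Treg genes were called lower.

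The members called higher were Pdcd1, Gpr83, Nrp1 and Il2ra, of which Nrp1 (log2 0.61) was called in 11 of 21 alternatives. Pdcd1, which encodes PD-1, had 99.5, 106 and 106 CPM under DFMO, against 60.1, 74.0 and 54.9 CPM in ctrl libraries, with no overlap (log2 0.72). Il2ra, the alpha chain of the IL-2 receptor, had 1180, 1289 and 1180 CPM under DFMO and 902, 1004 and 1000 CPM in ctrl libraries (log2 0.33 ± 0.10, edgeR adjusted p = 0.0115). The groups did not overlap, but the call was lost without iTreg ctrl KO replicate 1 (log2 0.30), without iTreg DFMO KO replicate 2 (log2 0.28) and on TPM (log2 0.09). In KO Th17n cells the log2 fold change of Il2ra was -0.42, and the difference between cultures was called (log2 0.75, edgeR adjusted p = 0.00144). Ikzf2, Ikzf4 and Icos, further Treg genes, were not called (log2 0.03, 0.22 and 0.03).

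Genes of the Th17 and Th1 lists were low, lower or not called. Il17a, Il22, Il21 and Ifng were at 0 in all 6 libraries, and Il17f had 0, 2.93 and 0.615 CPM under DFMO and 1.09, 0 and 1.00 CPM in ctrl libraries. Of 18 tested Th17 genes 5 were called lower and 0 higher, beside 19.1% and 19.0% of all tested genes, and 13 were not called. The lower ones included the transcription factors Ahr (log2 -2.03), Rora (-1.42) and Hif1a (-0.77). Without iTreg ctrl KO replicate 2 or 3, or without iTreg DFMO KO replicate 1 or 2, 2 or 3 Th17 genes were called lower. Of 14 tested Th1 genes 6 were called lower and 0 higher (median log2 -0.79), and 3 were called lower without iTreg ctrl KO replicate 1. Stat4, which relays IL-12, had 21.1, 27.3 and 23.4 CPM under DFMO and 84.3, 87.2 and 83.3 CPM in ctrl libraries, far apart (log2 -1.82 ± 0.16, edgeR adjusted p = 6.11e-10).

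Cytokine and chemokine genes included large differences in both directions. Of 16 tested members 10 were called higher and 2 lower, beside 19.0% and 19.1% of all tested genes, with a median log2 fold change of 0.75. Ccl22, a ligand of the chemokine receptor CCR4 (chromosome 8, 94745590 to 94751699, plus strand), had 153, 59.1 and 156 CPM in DFMO libraries, against 2.53, 0.823 and 2.34 CPM in ctrl libraries, which together held 16 counts. Every DFMO library was far above every ctrl library, and the gene was 61.5-fold higher (log2 5.94 ± 0.75, edgeR adjusted p = 5.69e-07). In KO Th17n cells its log2 fold change was -0.45 and was not called (edgeR adjusted p = 0.94). The difference between the DFMO effects of the cultures was not called either.

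Ccl5, a chemokine that attracts T cells, moved the other way, with 0.594, 2.26 and 1.23 CPM under DFMO and 19.2, 22.6 and 42.5 CPM in ctrl libraries, 19.3-fold lower (log2 -4.27 ± 0.49, edgeR adjusted p = 7.31e-08). Ltb, which encodes lymphotoxin beta, had 1078, 890 and 1189 CPM under DFMO, against 401, 431 and 514 CPM in ctrl libraries (log2 1.23 ± 0.14, edgeR adjusted p = 4.89e-08). Neither gene's groups overlapped. Ccl3 had 42.5, 83.5 and 63.3 CPM under DFMO and 9.05, 21.8 and 9.70 CPM in ctrl libraries (log2 2.26 ± 0.31). Tnfsf11 (RANKL) had 105, 141 and 113 CPM under DFMO and 38.0, 67.9 and 24.1 CPM in ctrl libraries, also without overlap (log2 1.49). Lif (log2 1.04) and Tnf (0.48) rose, and Tnfsf14 (-0.99) fell. Il2 had 18.4, 11.5 and 38.7 CPM under DFMO and 15.2, 13.2 and 6.36 CPM in ctrl libraries, where the groups overlapped and no change was called (edgeR adjusted p = 0.134).

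Il9, the cytokine of Th9 cells (chromosome 13, 56479277 to 56482246, minus strand), had 94.5, 81.2 and 147 CPM in DFMO libraries, against 5.43, 9.87 and 11.4 CPM in ctrl libraries. The lowest DFMO library was well above the highest ctrl library, an 11.9-fold difference (log2 3.58 ± 0.48, edgeR adjusted p = 9.05e-07). The log2 fold changes in WT iTreg (4.38) and KO Th17n (3.30) had the same sign. Of 9 tested Th2 and Th9 genes 3 were called higher, Il9, Il4ra and Ccr4, and 2 lower, Gata3 and Ecm1. The shares over all tested genes were 19.0% and 19.1%. Gata3, the Th2 factor, had 74.8, 67.7 and 79.6 CPM under DFMO and 112, 106 and 124 CPM in ctrl libraries (log2 -0.62), a call that was lost on TPM.

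**Figure D2:**
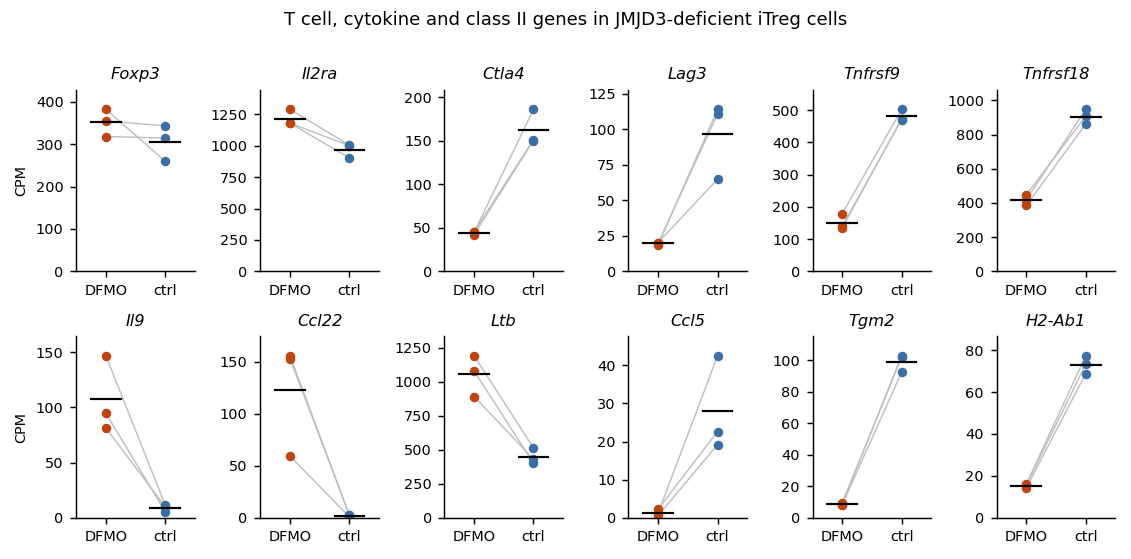
CPM of 12 T cell, cytokine and antigen presentation genes in the 3 iTreg DFMO KO libraries (left, red) and the 3 iTreg ctrl KO libraries (right, blue), with grey lines joining libraries of 1 animal and black bars at group means. Foxp3 overlaps between the groups, while Ctla4, Lag3, Tnfrsf9, Tnfrsf18, Ccl5, Tgm2 and H2-Ab1 are lower and Il9, Ccl22 and Ltb higher in every DFMO library.

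The shares called over all genes, 19.0% higher and 19.1% lower, are the background for the signalling lists, and those of TGF-beta and SMAD and of immediate early and NF-kB genes were near or below it. Of 17 tested IL-2 and STAT5 genes 8 were called higher and 4 lower; 2 were called lower without iTreg ctrl KO replicate 1, iTreg DFMO KO replicate 1 or iTreg DFMO KO replicate 2. Socs2, a feedback inhibitor of STAT5, had 564, 556 and 567 CPM under DFMO, against 309, 307 and 302 CPM in ctrl libraries, with very little spread in either group (log2 0.88 ± 0.13, edgeR adjusted p = 3.67e-06). Of 23 T cell receptor and costimulation genes 7 were called higher and 8 lower, among them the receptor Cd6 (log2 0.77) and the phosphatase Ptpn22 (-1.33). Of 20 TGF-beta and SMAD genes 2 were called higher, the corepressor Ski and the target Id1, and 0 lower (median log2 -0.02). Of 25 immediate early and NF-kB genes 4 were called higher and 5 lower. Myc had 501, 477 and 492 CPM under DFMO and 352, 346 and 355 CPM in ctrl libraries, which do not overlap (log2 0.48 ± 0.10, edgeR adjusted p = 0.000415). The MAP kinase phosphatases Dusp2 (log2 1.43) and Dusp4 (-1.47) moved in opposite directions. Of 14 naive and memory genes 0 were called higher and 4 lower, among them the chromatin organiser Satb1 (log2 -0.81) and the homing receptor Ccr7 (-0.53).

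The genes of ribosome assembly rose almost as a whole. Of 35 tested ribosome biogenesis genes 32 were called higher and 0 lower, with a median log2 fold change of 1.00 beside -0.03 over all genes. Over all tested genes 19.0% were called higher and 19.1% lower. Nolc1, a nucleolar chaperone, had 304, 288 and 294 CPM in DFMO libraries, against 107, 106 and 108 CPM in ctrl libraries (log2 1.47 ± 0.11, edgeR adjusted p = 3.35e-11). Nop56, of the box C/D particles that guide ribosomal RNA methylation, had 681, 671 and 674 CPM under DFMO and 234, 300 and 259 CPM in ctrl libraries (log2 1.35 ± 0.10). In both cases all DFMO libraries lay above all ctrl libraries by a wide margin. Its partner Nop58 (log2 1.15) and the pseudouridine synthase Dkc1 (1.23) rose too. On TPM 28 of these genes were called higher and 0 lower.

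Of 31 translation initiation and elongation factors 20 were called higher and 1 lower (median log2 0.33). On TPM 13 were called higher. For these factors and the chaperone lists below, the background is 19.0% higher and 19.1% lower over all tested genes. The scaffold Eif4g1 had 230, 214 and 241 CPM under DFMO, against 119, 126 and 114 CPM in ctrl libraries, without overlap (log2 0.93 ± 0.09, edgeR adjusted p = 7.14e-09). The 1 gene called lower was Eif4ebp1, an inhibitor of cap-dependent initiation (log2 -0.63). Of 19 heat shock and chaperonin genes 12 were called higher and 1 lower (median log2 0.47), and Hspd1, the mitochondrial chaperonin, had 875, 1008 and 877 CPM under DFMO and 472, 503 and 439 CPM in ctrl libraries (log2 0.96 ± 0.09). Of 21 endoplasmic reticulum chaperone and unfolded protein response genes 9 were called higher and 1 lower, the degradation adaptor Sel1l (log2 -1.14).

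Most genes of DNA replication rose as well. Of 37 tested members 28 were called higher and 0 lower (median log2 0.43), 18 on TPM and 17 without both libraries of KO animal 1. Fen1, the flap endonuclease, had 324, 292 and 309 CPM under DFMO, against 135, 125 and 136 CPM in ctrl libraries (log2 1.23). Rrm2, the ribonucleotide reductase subunit, had 545, 561 and 535 CPM under DFMO and 227, 272 and 259 CPM in ctrl libraries (log2 1.11). For both genes the groups were far apart. The rise of Rrm2 was smaller than in KO Th17n cells, where the log2 fold change was 2.06 (log2 difference -0.95, edgeR adjusted p = 0.000141), and 15 of the 37 genes had a called difference between the cultures. Of 26 genes of the G2 and M phases 2 were called higher and 4 lower, below the shares of 19.0% and 19.1% over all genes. That is no result about the list, and 2 were called lower without iTreg DFMO KO replicate 1. Hmmr, a spindle protein, was among the lower (log2 -0.61 ± 0.12, edgeR adjusted p = 0.000147). Of 17 genes of the p53 response 4 were called each way, near the shares of 19.0% and 19.1% over all genes. Trp53 itself had 437, 411 and 443 CPM under DFMO and 202, 236 and 233 CPM in ctrl libraries (log2 0.94 ± 0.10, edgeR adjusted p = 8.07e-09).

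**Figure D3:**
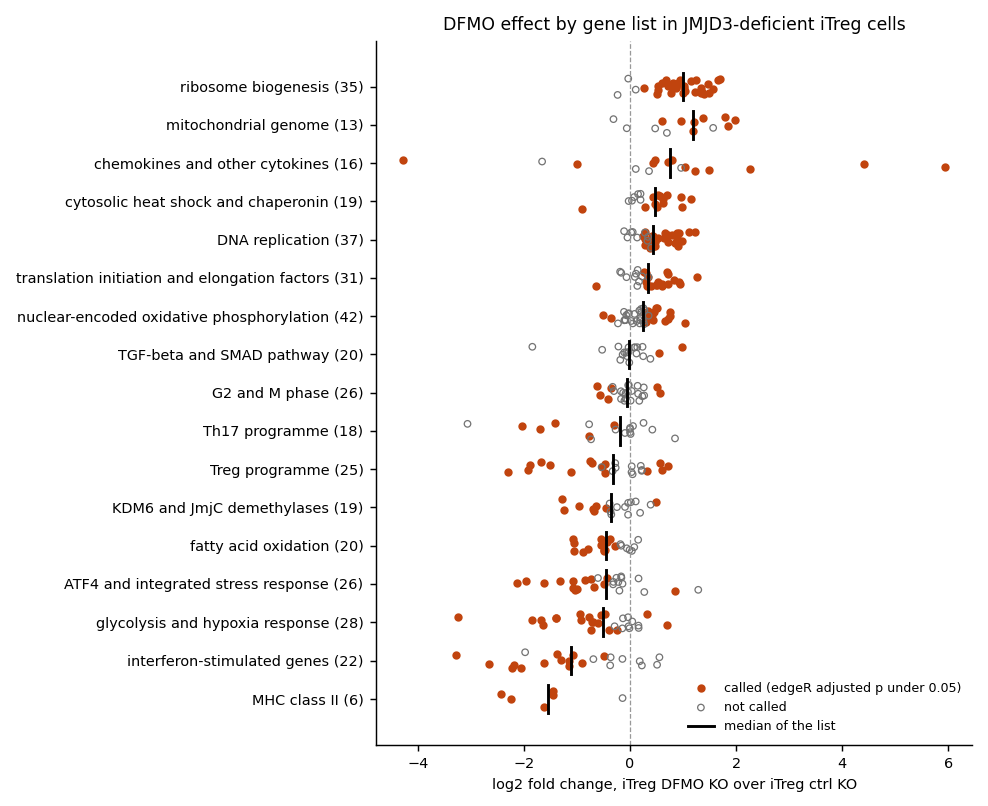
Log2 fold change of iTreg DFMO KO over iTreg ctrl KO for each tested member of 17 gene lists; each point is a gene, filled where edgeR called it, and black bars are list medians. The medians of ribosome biogenesis (1.00) and the mitochondrial genome (1.18) stand highest and those of MHC class II (-1.54) and interferon-stimulated genes (-1.11) among the lowest.

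Genes of energy metabolism split by pathway. Of 28 glycolysis and hypoxia genes 17 were called lower and 2 higher (median log2 -0.52). Aldoc, an aldolase, had 21.7, 18.1 and 23.7 CPM under DFMO, against 194, 194 and 205 CPM in ctrl libraries, a very wide gap with little spread (log2 -3.24 ± 0.18, edgeR adjusted p = 7.48e-14). Bnip3, a mitophagy receptor induced by hypoxia, had 70.7, 93.0 and 77.4 CPM under DFMO and 206, 257 and 176 CPM in ctrl libraries (log2 -1.40 ± 0.13). The lactate transporter Slc16a1 (log2 0.69) and Pfkl (0.32) were the 2 called higher, Pfkl not without iTreg ctrl KO replicate 1 or 2 or iTreg DFMO KO replicate 3. Of 20 fatty acid oxidation genes 13 were called lower and 0 higher (median log2 -0.45), such as Acadl with 68.0, 75.4 and 84.5 CPM under DFMO and 166, 144 and 164 CPM in ctrl libraries (log2 -1.05 ± 0.12). Of 26 genes of cholesterol and fatty acid synthesis 10 were called lower and 2 higher, among them the fatty acid synthase Fasn (log2 0.86). Of 29 lysosome and autophagy genes 9 were called lower and 3 higher. The shares over all tested genes, 19.1% lower and 19.0% higher, are the background for each of these lists.

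Some respiratory chain genes of the nucleus and of the mitochondrial genome were higher. Of 42 nuclear-encoded oxidative phosphorylation genes 17 were called higher and 2 lower (median log2 0.25). For these and for the mitochondrial genes below, the background is 19.0% higher and 19.1% lower over all tested genes. Ndufa4, a subunit of the chain, had 416, 435 and 502 CPM under DFMO, against 256, 304 and 260 CPM in ctrl libraries, with no overlap (log2 0.72). Of the 13 protein genes of the mitochondrial genome 8 were called higher and 0 lower (median log2 1.18). Their summed level was 9462, 16690 and 12940 CPM under DFMO and 6748, 11290 and 8021 CPM in ctrl libraries, so the groups overlapped, although DFMO was higher within each of the 3 animals. Animal 2 was highest in both treatments. The count fell to 3 without iTreg DFMO KO replicate 2, to 4 without iTreg ctrl KO replicate 1 or 3, and to 4 on TPM. mt-Cytb had 1257, 1882 and 1886 CPM under DFMO and 383, 635 and 437 CPM in ctrl libraries, which do not overlap (log2 1.79 ± 0.30).

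Many genes of the integrated stress response fell. In this pathway stress kinases slow translation, and the factor ATF4 then turns on genes of amino acid synthesis. ATF4 dimers bind composite sites with the letters TGATGNAA. Of 26 tested members 13 were called lower and 1 higher, beside 19.1% and 19.0% of all genes, with a median log2 fold change of -0.46. The gene called higher was the amino acid transporter Slc7a5 (log2 0.85), whose call was lost on TPM (log2 0.46 on log2(TPM + 1)) and without iTreg DFMO KO replicate 3 (log2 0.69). Atf4 itself was not called (log2 -0.14, edgeR adjusted p = 0.35). Windows upstream of the start of 3 members that fell are shown to place such matches, read from RefSeq promoters of GRCm38.p6 on the strand of the gene, 5′ to 3′, with matches on either strand in capitals.
Chac1, chr2:119351013-119351092, plus strand: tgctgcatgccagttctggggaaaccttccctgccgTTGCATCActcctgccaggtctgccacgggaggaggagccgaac
Asns, chr6:7693210-7693268, minus strand: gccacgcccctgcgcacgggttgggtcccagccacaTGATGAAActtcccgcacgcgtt
Pycr1, chr11:120643808-120643887, minus strand: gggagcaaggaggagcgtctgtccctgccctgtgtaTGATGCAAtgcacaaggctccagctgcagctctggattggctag

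A match stood in the promoters (250 bases before to 50 after the start) of 8 of 25 list members with a promoter, 6 of the 13 called lower, and of 2.88% of all tested genes. The windows shown are all of members with a match. Ddit3, Ddit4, Mthfd2, Psph, Ppp1r15a, Eif2ak3 and Eif2ak4 were called lower without one. The motif was chosen after the values were seen, and a match is a description of letters only. Ddit3, which encodes the stress factor CHOP, had 30.6, 29.6 and 37.2 CPM in DFMO libraries, against 121, 106 and 149 CPM in ctrl libraries (log2 -1.96 ± 0.16, edgeR adjusted p = 1.52e-10). Pycr1, of proline synthesis, had 17.5, 20.99 and 21.2 CPM under DFMO and 86.9, 79.0 and 94.3 CPM in ctrl libraries (log2 -2.12 ± 0.21, edgeR adjusted p = 5.56e-09). Asns, asparagine synthetase, had 115, 179 and 135 CPM under DFMO and 288, 338 and 279 CPM in ctrl libraries (log2 -1.07). No DFMO library reached a ctrl library for any of the 3 genes.

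Chac1, which degrades glutathione, differed from every other listed member of this pathway in that its DFMO effect was called different from both comparison cultures. It had 10.4, 12.2 and 11.4 CPM in iTreg DFMO KO, against 25.7, 37.4 and 42.5 CPM in iTreg ctrl KO, with no overlap (log2 -1.63 ± 0.18, edgeR adjusted p = 4.84e-08). In WT iTreg its log2 fold change was -0.39, a difference of -1.24 ± 0.23 (edgeR adjusted p = 0.0086), called in 22 of 29 alternatives. In KO Th17n it was 0.54, a difference of -2.17 ± 0.26 (edgeR adjusted p = 3.48e-06), called in 27 of 27. The other members with a called difference from KO Th17n were Ddit3, Atf3, Trib3, Asns, Mthfd2 and Nupr1. Of 20 aminoacyl-tRNA synthetases, several of which are ATF4 targets, 6 were called lower and 3 higher, beside 19.1% and 19.0% of all tested genes.

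Many interferon-stimulated genes fell too. The labels name no interferon among the cytokines added. Such genes often carry an interferon-stimulated response element, searched here on both strands as GAAA, any 2 bases and GAAA again. Of 22 tested members 13 were called lower and 0 higher, beside 19.1% and 19.0% of all tested genes. The median log2 fold change was -1.11 in KO and -0.57 in WT iTreg. Without both libraries of KO animal 2, 8 were called lower. In WT 10 were called lower and 4 higher. The summed CPM of the list was 861 to 1330 under DFMO and 1226 to 1419 in ctrl libraries of KO, which overlap. In WT it was mostly higher under DFMO, at 2320 to 2861 against 1613 to 2378. The DFMO effect was called different between KO and WT iTreg for 0 of the 22 members. Upstream windows of 3 members are shown as above, with the matches, some of them overlapping, in capitals.
Isg15, chr4:156200849-156200928, minus strand: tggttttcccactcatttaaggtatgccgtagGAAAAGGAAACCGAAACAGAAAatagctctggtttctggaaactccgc
Ifit1, chr19:34640759-34640838, plus strand: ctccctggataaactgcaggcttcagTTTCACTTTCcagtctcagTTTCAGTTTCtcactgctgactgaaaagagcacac
Oas1a, chr5:120907527-120907606, minus strand: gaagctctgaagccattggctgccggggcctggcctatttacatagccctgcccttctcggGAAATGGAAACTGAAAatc

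A match stood in the promoters of 12 of 19 list members with a promoter, 7 of 12 called lower, and of 3.82% of all tested genes. This motif, too, was chosen after the values were seen. The windows shown are again all of members with a match, and Irf7, Irf9, Isg20, Oasl1 and Oasl2 were called lower without one. Isg15, a ubiquitin-like modifier, had 2.38, 2.93 and 5.22 CPM in DFMO libraries, against 10.1, 15.6 and 23.1 CPM in ctrl libraries (log2 -2.22 ± 0.62, edgeR adjusted p = 0.00556). Oas1a, an antiviral synthetase, had 0.891, 0 and 0.307 CPM under DFMO and 5.43, 1.65 and 4.35 CPM in ctrl libraries (log2 -3.28). Ifit1, which binds viral RNA, had 2.08, 7.0 and 6.45 CPM under DFMO and 9.05, 9.87 and 15.7 CPM in ctrl libraries (log2 -1.14, edgeR adjusted p = 0.0381), a call that held in 14 of 21 alternatives. The groups of these 3 genes did not overlap, but the levels are low. Stat2, a subunit of the factor that binds such elements, had 30.9, 24.4 and 28.9 CPM under DFMO, against 65.9, 52.2 and 58.5 CPM in ctrl libraries, also without overlap (log2 -1.08 ± 0.16, edgeR adjusted p = 4.6e-06). Irf7, a factor of the same pathway, had 5.94, 4.51 and 7.38 CPM under DFMO and 24.3, 32.9 and 23.8 CPM in ctrl libraries (log2 -2.19 ± 0.56). The interferon gamma targets Irf1 (log2 0.51) and Gbp2 (0.55) were not called.

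Genes of MHC class II, which show peptides to CD4 T cells on the surface of antigen-presenting cells, were lower. Of 6 tested members 5 were called lower and 0 higher (median log2 -1.54), beside 19.1% and 19.0% of all tested genes. H2-Ab1, a class II beta chain, had 14.3, 16.0 and 15.7 CPM in DFMO libraries, against 68.8, 77.3 and 73.3 CPM in ctrl libraries, far apart (log2 -2.25 ± 0.18, edgeR adjusted p = 2.06e-10). Cd74, the invariant chain, had 38.3, 29.6 and 61.1 CPM under DFMO and 110, 94.2 and 147 CPM in ctrl libraries (log2 -1.46). The list of 10 dendritic cell markers, which holds H2-Aa, H2-Ab1, H2-Eb1 and Cd74, summed to 55.7 to 83.9 CPM under DFMO and 204 to 246 CPM in ctrl libraries, and 4 of its members were called lower. Among the others, Itgax was at 0 in all 6 libraries, and Zbtb46, a dendritic cell factor, had 6.53, 5.19 and 4.30 CPM under DFMO and 13.03, 15.6 and 11.7 CPM in ctrl libraries. Summed B cell markers were 17.2 to 24.4 CPM under DFMO and 15.7 to 18.5 CPM in ctrl libraries, and myeloid markers 3.27 to 4.06 CPM and 2.88 to 8.70 CPM, with Lyz2 at 0. The part of antigen-presenting cells in the class II result was not tested.

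Other genes with large differences were spread over many functions. Tgm2, a transglutaminase that can join polyamines to proteins (chromosome 2, 158116402 to 158146436, minus strand), had 8.32, 9.48 and 8.30 CPM under DFMO, against 92.3, 102 and 103 CPM in ctrl libraries. It was 11.3-fold lower with no overlap (log2 -3.50 ± 0.29, edgeR adjusted p = 2.11e-10), and in KO Th17n its log2 fold change was -0.83 (log2 difference -2.67). Ifi27l2a, an interferon-induced gene, had 107, 65.5 and 102 CPM under DFMO and 926, 811 and 850 CPM in ctrl libraries (log2 -3.25 ± 0.30). Selenbp1 (log2 -3.27), the glycogen phosphorylase Pygl (-3.05) and the actin-severing Gsn (-3.04) were also among the 12 largest falls. Among the 12 largest rises were the transcription factor Spib, with 39.2, 29.6 and 40.3 CPM under DFMO and 5.79, 2.06 and 5.02 CPM in ctrl libraries (log2 3.04), Wnt10a (4.02), Mgat2 (2.87), the natriuretic peptide Nppc (2.85), Yars2 (2.62), the IL-1 antagonist Il1rn (2.56) and the p53 target Phlda3 (2.47). None of these groups overlapped.

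Of 19 JmjC demethylase genes, the family of Kdm6b, 7 were called lower and 1 higher (median log2 -0.35), beside 19.1% and 19.0% of all genes. Kdm6a, the paralogue of Kdm6b, had 20.2, 19.2 and 17.2 CPM in DFMO libraries, against 34.0, 31.7 and 26.1 CPM in ctrl libraries (log2 -0.69 ± 0.18, edgeR adjusted p = 0.003). Kdm5b, an H3K4 demethylase, had 33.6, 39.0 and 35.0 CPM under DFMO and 90.5, 80.2 and 86.3 CPM in ctrl libraries (log2 -1.25 ± 0.12). Ezh2, the H3K27 methyltransferase, had 155, 194 and 202 CPM under DFMO, against 121, 123 and 113 CPM in ctrl libraries (log2 0.63 ± 0.12, edgeR adjusted p = 0.000179). Each of the 3 had groups that did not overlap. Ezh1, its paralogue, fell (log2 -0.88). Of 19 Polycomb genes 4 were called higher and 2 lower, which is near or below the shares over all genes and is no result about the list.

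The effect of DFMO on JMJD3-deficient iTreg cells was then set against that on WT iTreg cells. In WT, 5214 genes were called (47.5%), 2540 higher and 2674 lower, with 4 animals in place of 3. Of the genes called in KO, 3433 were also called in WT, which is 82.1% of the KO calls and 65.8% of the WT calls, and 3429 of them had the same direction. The 4 with opposite calls were named after their values were seen: Capn10 (log2 -0.66 in KO and 0.42 in WT), Polr2g (-0.35 and 0.39), Rpusd4 (-0.43 and 0.31) and Scyl3 (-0.40 and 0.47). The test of the difference called 27 genes (0.246%), 3 higher (0.0273%) and 24 lower (0.218%) in the KO minus the WT effect; 1080 had an unadjusted p under 0.05. On log2(TPM + 1) limma called 11 higher and 9 lower, and with TPM scaled by TMM 6 higher and 19 lower.

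**Figure D4:**
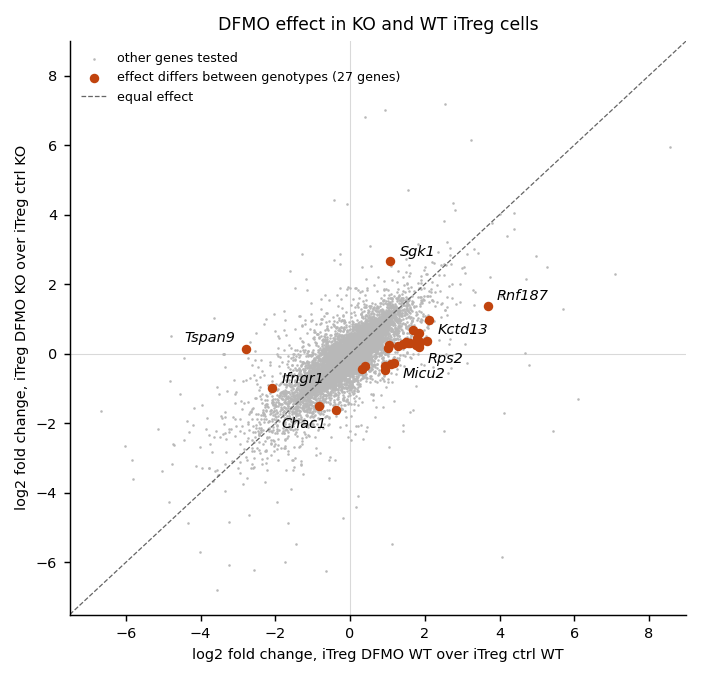
Log2 fold change under DFMO in KO iTreg (vertical axis) against that in WT iTreg (horizontal axis) for the 10985 tested genes. Each point is a gene, the dashed line marks equal effects, and the 27 genes whose effects differed in the edgeR test are red, 24 of them below the line.

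Of the 3 genes with a higher effect in KO, Sgk1, a kinase that controls ion transport and T helper differentiation (chromosome 10, 21882184 to 21999903, plus strand), rose more. It had 114, 123 and 104 CPM in iTreg DFMO KO, against 11.6, 27.97 and 15.7 CPM in iTreg ctrl KO (log2 2.65 ± 0.21, edgeR adjusted p = 9.29e-11). In WT it had 99.5, 94.1, 116 and 126 CPM under DFMO and 39.2, 61.5, 45.3 and 59.9 CPM in ctrl libraries. All KO ctrl libraries were below all WT ctrl libraries, while the DFMO libraries of the genotypes overlapped. The difference of the effects was 1.57 ± 0.26 on the log2 scale (edgeR adjusted p = 0.00294) and was called in 24 of 29 alternatives. It was not called on TPM, where it ranged from 1.39 to 1.58, or with only the groups compared fitted (1.56).

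Ifngr1, a chain of the interferon gamma receptor (chromosome 10, 19591949 to 19610229, plus strand), fell less in KO. It had 74.3, 75.2 and 58.1 CPM in iTreg DFMO KO, against 130, 157 and 126 CPM in iTreg ctrl KO (log2 -0.98). In WT it had 41.2, 43.9, 36.4 and 34.8 CPM under DFMO and 172, 154, 189 and 146 CPM in ctrl libraries (log2 -2.08). Every KO DFMO library lay above every WT DFMO library, while the ctrl libraries of the genotypes overlapped. The difference of 1.09 ± 0.16 (edgeR adjusted p = 0.0018) was called in all 29 alternatives. The last of the 3 was Tspan9, at low levels (log2 difference 2.91, 19 of 28 alternatives), which falls outside the naming rule and was named after its values were seen.

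Among the 24 genes with a lower effect in KO, Rnf187, a ubiquitin ligase, had 505, 447 and 486 CPM in iTreg DFMO KO, against 160, 236 and 158 CPM in iTreg ctrl KO. In WT it had 416, 408, 483 and 91.8 CPM under DFMO and 30.3, 31.4, 29.7 and 16.0 CPM in ctrl libraries, so WT replicate 4 was lowest in both treatments. The difference was -2.30 on the log2 scale (edgeR adjusted p = 0.00428), called in 23 of 29 alternatives. It was not called on TPM (-1.97 to -1.88), with only the groups compared (-2.32) or without both libraries of KO animal 2 (-2.03). The next largest were Kctd13 (-1.69, called in 21 of 29 alternatives), Rps2 (-1.63, 27 of 29), Plbd2 (-1.54, 26 of 29), B3gnt2 (-1.51, 28 of 29) and Micu2 (-1.44, 14 of 29). The call of Micu2 was lost without iTreg ctrl KO replicate 1 or 2, iTreg DFMO WT replicate 1 or 3, or any 1 of the iTreg DFMO KO libraries (-1.55 to -1.32). Rps2 has near-identical copies in the genome, so its counts are uncertain. Of the 24, 23 had a WT ctrl mean below the KO ctrl mean, and for 21 the genotypes differed by a larger ratio in ctrl than in DFMO libraries. All 24 were called in WT iTreg, 22 of them higher, and 9 in KO iTreg, 5 higher and 4 lower. The test that picked the 24 uses these same means and favours such patterns. These counts are therefore no separate evidence, and they were not set against all tested genes. The count of 27 rested on single libraries: it was 99 without iTreg DFMO WT replicate 4, 66 without iTreg ctrl WT replicate 2, 46 without iTreg DFMO WT replicate 2, 43 without iTreg ctrl WT replicate 4, 17 without iTreg ctrl KO replicate 3, 16 without iTreg DFMO WT replicate 3 and 15 without iTreg DFMO KO replicate 2. With the animal as a block it was 57.

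The same cells' response was last set against that of Th17n cells from the same 3 KO animals. In KO Th17n 5013 genes were called (45.6%). Of the KO iTreg calls 3003 were also called there, which is 71.8% of the iTreg calls and 59.9% of the Th17n calls, and 2942 had the same direction. The difference between the effects was called for 648 genes (5.9%), 406 higher (3.7%) and 242 lower (2.2%) in the iTreg minus the Th17n effect; 2086 had an unadjusted p under 0.05. On log2(TPM + 1) limma called 246 higher and 402 lower, so the majority lay on the lower side there and on the higher side in edgeR. With TPM scaled by TMM it called 268 higher and 297 lower, so the side of the majority depended on the scaling. Of the 648, 61 had opposite calls, 123 were called in iTreg alone, 294 in Th17n alone, 167 in both with the same direction and 3 in neither. The count was 163 to 297 when all libraries of 1 animal were left out.

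Crispld2, a secreted protein, showed opposite effects. It had 12.5, 18.1 and 16.6 CPM in iTreg DFMO KO, against 5.07, 4.52 and 6.69 CPM in iTreg ctrl KO, and 31.1, 36.6 and 37.5 CPM in Th17n DFMO KO, against 226, 244 and 299 CPM in Th17n ctrl KO. The groups overlapped in neither culture, and the difference of effects was 4.39 ± 0.32 on the log2 scale (edgeR adjusted p = 3.99e-10). Adm, the vasoactive peptide adrenomedullin, had 19.3, 15.1 and 19.4 CPM in iTreg DFMO KO, against 4.34, 4.94 and 5.35 CPM in iTreg ctrl KO. In Th17n KO it had 3.83, 6.93 and 4.63 CPM under DFMO and 22.9, 27.4 and 24.9 CPM in ctrl libraries, again opposite (difference 4.16 ± 0.54, edgeR adjusted p = 9.83e-06). Both were called in all 27 alternatives.

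Inhba, a subunit of activins, had 5.05, 1.35 and 7.07 CPM in iTreg DFMO KO and 0 in all iTreg ctrl KO libraries. That is 46 counts against 0, at least 10.7-fold higher against a floor of 3 counts over the group. In Th17n KO it had 103, 91.8 and 106 CPM under DFMO and 30.3, 32.2 and 44.1 CPM in ctrl libraries. Dapk2, a kinase, had 3.86, 3.38 and 6.15 CPM in iTreg DFMO KO and 17.7, 15.6 and 17.7 CPM in iTreg ctrl KO, and was at 0 in all Th17n DFMO KO libraries, against 3.67, 5.97 and 11.3 CPM in Th17n ctrl KO, at least 32.8-fold lower. Gipr, an incretin receptor, was near 0 in iTreg and had 1.80, 4.21 and 2.74 CPM in Th17n DFMO KO, against 83.4, 94.7 and 95.5 CPM in Th17n ctrl KO. The levels of Inhba and Gipr were low in iTreg, and those of Dapk2 were lowest in Th17n, with 0 under DFMO. Their differences were called in 17 (Inhba), 16 (Dapk2) and 22 (Gipr) of 27 alternatives. On log2(TPM + 1) the differences of Inhba (0.17) and Dapk2 (0.57) were not called. The call of Inhba was lost without any 1 of the iTreg ctrl KO libraries or without iTreg DFMO KO replicate 1 or 3. That of Dapk2 was lost without any 1 of the Th17n DFMO KO libraries, Th17n ctrl KO replicate 3 or iTreg DFMO KO replicate 3, and that of Gipr without iTreg DFMO KO replicate 2 or 3. C3, of complement, was not called in iTreg (log2 -0.17) and fell in Th17n (log2 -3.88).

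Of the genes with a lower effect in iTreg, Xaf1, an interferon-induced gene, fell in iTreg (log2 -1.37), with 11.9, 8.8 and 11.99 CPM in iTreg DFMO KO, against 31.1, 27.98 and 24.8 CPM in iTreg ctrl KO. In Th17n it had 5.4, 4.95 and 6.53 CPM under DFMO and 2.75, 0.398 and 1.26 CPM in ctrl libraries (log2 1.99; difference -3.36, edgeR adjusted p = 0.00345). Tead1, a transcription factor of the Hippo pathway, had 21.4, 24.4 and 20.9 CPM in iTreg DFMO KO and 20.99, 24.7 and 23.8 CPM in iTreg ctrl KO, which overlap, and in Th17n 5.63, 7.92 and 4.0 CPM under DFMO and 0.459, 0 and 1.26 CPM in ctrl libraries (difference -3.08, edgeR adjusted p = 0.00131). The chemokine Ccl20, a ligand of CCR6, had at most 2.06 CPM in the iTreg KO libraries, and 51.3, 53.2 and 69.5 CPM in Th17n DFMO KO, against 9.63, 20.3 and 10.8 CPM in Th17n ctrl KO (difference -2.88, edgeR adjusted p = 0.0451). That difference was called in 15 of 27 alternatives and was lost on leaving out any single library of the 12 other than Th17n ctrl KO replicate 2, Th17n DFMO KO replicate 1 or iTreg DFMO KO replicate 2. Serpina3g (-4.17, called in 15 of 27 alternatives), Ccl5 (-3.12, 25 of 27) and Bcl2a1d (-2.71, 25 of 27) completed the 6 largest. The call of Serpina3g was lost on leaving out any single library other than Th17n DFMO KO replicate 1, iTreg ctrl KO replicate 2 or iTreg DFMO KO replicate 1 or 3. Xaf1 was called in 25 and Tead1 in 23 of the 27, with Tead1 lost on TPM (-1.16 on log2(TPM + 1)).

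**Figure D5:**
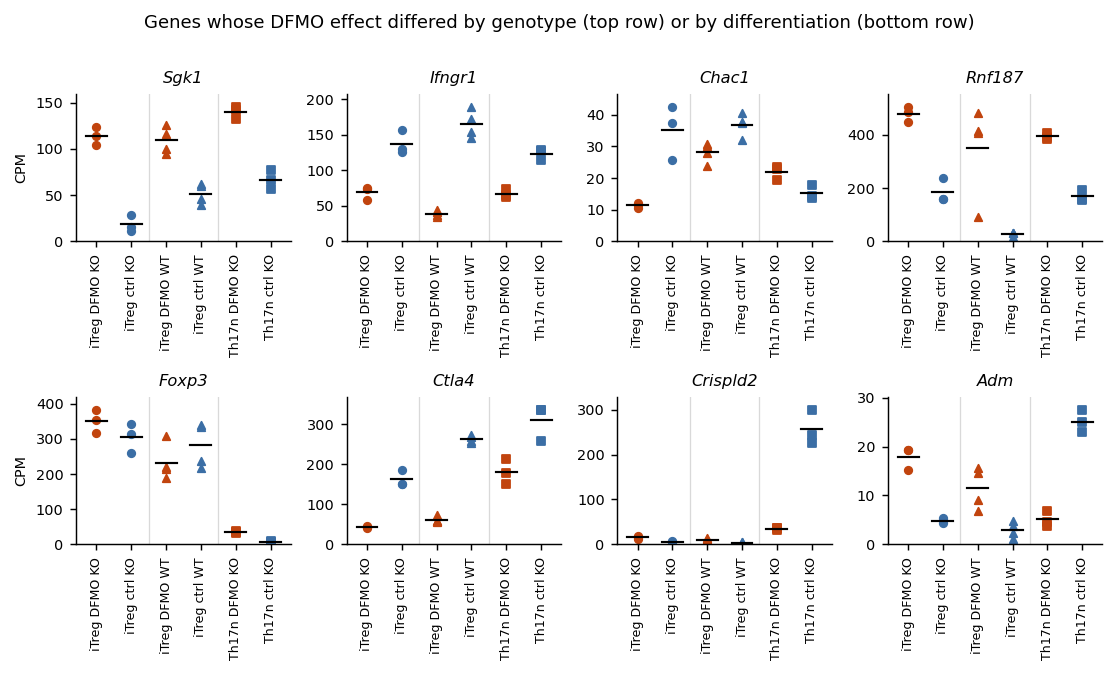
CPM of 8 genes in the iTreg KO, iTreg WT and Th17n KO libraries, each with DFMO (left, red) beside ctrl (right, blue); black bars are group means. The top row shows genes whose DFMO effect differed between KO and WT iTreg, with Sgk1 lowest in iTreg ctrl KO, and the bottom row genes whose effect differed between KO iTreg and KO Th17n, such as Foxp3, whose rise was called in Th17n and not in iTreg.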

How the data were processed

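RNA of sorted live cells was made into full-length libraries and read in pairs of 75 bp, per the labels' protocols. The authors deposited an estimated count and a TPM for each of 20891 genes, both from kallisto on GRCm38 per the submitters' processing notes. The version of kallisto is not given in the sources used here. Within 0.001, 67.2% of the estimated counts deposited were whole, and deposited TPM summed to 863920 to 886579 per library. No use of strand is stated, so reads of genes that overlap or lie antisense are not separated. Gene names matched GENCODE M21, which gave coordinates.

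Counts were rounded to whole numbers. The quasi-likelihood test of edgeR 4.0.16, under R 4.3.3, was run on all 28 libraries with a mean for each of the 8 groups (TMM, edgeR's filter on low counts, 10985 genes, 20 residual degrees of freedom). Benjamini-Hochberg adjustment was made over all genes of each of 3 contrasts, and an adjusted p under 0.05 was called. Errors of log2 fold changes are SE from the quasi-likelihood F. The gene calls were tested on simulated counts. Nothing in the labels says that cultures of an animal were repeated. P-values measure the spread between libraries of a group, pooled over the 8 groups, with libraries of the same animal taken as independent. The spread of the differences within animals enters only in the fits with the animal as a block.

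The animal numbers in the labels pair libraries, since each animal gave 4. Deviations from group means of libraries from the same KO animal correlated at 0.0376 to 0.218, against -0.208 to 0.0346 for different animals. Because DFMO and ctrl cultures share an animal, the block is given as an alternative. DESeq2 1.42.0 and limma 3.58.1 on log2(TPM + 1) or log2(TPM + 0.1) were further alternatives; TPM scaled by TMM was added after seeing the data.

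Named genes were a fixed set (Kdm6b, Odc1, Srm, Foxp3, Il2ra, Ctla4, Il2, Il17a, Il17f, Ifng), the 12 largest called changes each way (mean of at least 10 CPM, no overlap, same direction in 3 animals), the 6 largest each way per interaction, all polyamine genes and up to 4 called members of smallest adjusted p per list, with up to 3 that moved against it. Some are given by count only, a few are not reported here, and Isg15, Oas1a, Ifit1, Asns, Tigit, Nrp1, Lif, Tnfsf11, Kdm6a and some members given by log2 value alone were named after their values were seen. Members and lists were chosen with earlier results of these data known, and the lists were written from general knowledge.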

Additional observations from a re-analysis of the deposited data

Results flagged for a closer look

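Tests of the difference between DFMO effects marked the following genes for a closer look, as log2 differences from edgeR. Between KO and WT iTreg they were Sgk1 (1.57), Ifngr1 (1.09), Rnf187 (-2.30), Kctd13 (-1.69), Rps2 (-1.63), Plbd2 (-1.54), B3gnt2 (-1.51) and Micu2 (-1.44). Between iTreg and Th17n cells of KO animals they were Dapk2 (5.85), Gipr (5.78), Inhba (5.52), Crispld2 (4.39), Adm (4.16), C3 (3.71), Serpina3g (-4.17), Xaf1 (-3.36), Ccl5 (-3.12), Tead1 (-3.08), Ccl20 (-2.88) and Bcl2a1d (-2.71). The fitted values of Dapk2, Gipr and Inhba rest on groups with few or no counts and are not bounds.

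In iTreg ctrl WT replicate 4, Rnf187 stood at 16.0 CPM, with the other 3 libraries of its group at 29.7 to 31.4 CPM. It was marked because its gap to the nearest library took up most of the range of its group; the measure is relative to that range, not to the fold. It was the 1 library past the limit of this measure among 16 groups of 4 examined, and chance marks about 1 in 20 groups. In iTreg DFMO WT replicate 4 the same gene stood at 91.8 CPM, with the other 3 at 408 to 483 CPM, a larger fold that came just short of the limit.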

How the results depend on the processing

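The 4181 calls for DFMO in KO iTreg ranged from 2980 to 3731 with libraries left out, 1394 to 1818 of them higher and 1483 to 1913 lower. Genes called higher were 1337 on log2(TPM + 1), 1298 on log2(TPM + 0.1) and 1230 without a filter on TPM. On log2(TPM + 1) and log2(TPM + 0.1) the median over all genes was -0.092 and -0.11 for DFMO in KO iTreg (-0.028 on counts), 0.105 and 0.128 for the genotype difference and -0.099 and -0.126 for the difference between cultures. With TPM scaled by TMM these 3 medians were -0.022, 0.021 and -0.059. Of 199 named results under 21 alternatives, 147 kept direction and call throughout; over all, 3931 values did, 207 lost the call, 12 gained it and 16 reversed. The reversed values were all of genes not called. They were Mtr on TPM (-0.154, -0.171, -0.154; scaled -0.074) and without KO animal 1 (-0.013), Atp13a2 on TPM (-0.372, -0.398, -0.372; scaled -0.291), Eif5a2 (-0.14, -0.027 and -0.251 with libraries of animal 3 left out; -0.251 to 0.305 over all left out), Il17f (-1.194 and -1.662 with those of animal 2 left out; up to 1.354) and Amd2 (-0.114 and -0.19 with those of animal 3 left out; up to 1.014). The medians of the transport and TCA cycle lists turned negative on TPM, and those of several lists near 0 changed sign with single libraries.

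Over all 28 libraries the replicate block (the animal) changed the call of 1 named gene, Slc7a1. With it, the genotype difference gave 57 calls in place of 27, 267 with only the groups compared fitted and 47 after thinning. It gave 103 calls in DESeq2, 146 without a filter on low counts, 4 (Ifngr1, Iscu, Lsm4 and Sac3d1, named after their values were seen) with only the groups compared and no block, and 12 to 99 with libraries left out, among them 15 without iTreg DFMO KO replicate 2 and 12, 13 and 12 without KO animals 1, 2 and 3. Of its 8 named genes, Ifngr1 kept its call under all 29 alternatives. The difference between cultures gave 1110 calls with only the groups compared and a replicate block, in place of 648, and 163 to 587 with libraries left out, 163, 297 and 223 of them without KO animals 1, 2 and 3; Crispld2, Adm and C3 of its 12 named genes kept their call under all 27. The causes were not tested. The ctrl KO libraries were the shallowest of the 6, which limits genes of a few counts such as Ccl22, Inhba and Oas1a in those cultures. With 3 animals a group, single libraries decide small changes.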
